A study of Solanum tuberosum with 6 samples.

Results

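The set described here holds the lipoxygenases and the later enzymes of oxylipin and jasmonate synthesis on a potato cDNA array. Its members were chosen by words in the deposited gene names (lipoxygenase, allene oxide, hydroperoxide lyase, divinyl ether, oxophytodienoate or phytodienoate, jasmonate or jasmonic), which 15 of 10499 clones carried. They were 3 clones named 13-lipoxygenase, 1 named 5-lipoxygenase, 2 named lipoxygenase with no position stated, 2 of fatty acid hydroperoxide lyase, 1 of divinyl ether synthase, 4 of 12-oxophytodienoate reductase and 2 named Jasmonic acid 2. Allene oxide synthase and allene oxide cyclase stand between lipoxygenase and oxophytodienoate reductase. No clone name carried the words allene oxide, so these steps are not analysed here. Names are those of the most similar known gene, from potato, tomato or Arabidopsis, and the clones were not placed on a genome here.

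Oxylipins are signalling and defence compounds made from polyunsaturated fatty acids. Lipoxygenases add oxygen to linoleic or linolenic acid, at one or the other end of its double-bond system, and the resulting hydroperoxide is the substrate of several competing enzymes. In the plastid the product of 13-lipoxygenase can enter jasmonate synthesis through allene oxide synthase, with a later reduction of 12-oxophytodienoate, or it can be cut by hydroperoxide lyase into volatile leaf aldehydes. The product of 9-lipoxygenase can be turned into divinyl ethers, which are known in potato leaves as defence compounds against microbes. In leaves of tomato and potato, jasmonate is best known as the wound signal that switches on proteinase inhibitors.

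The leaves came from potato (Solanum tuberosum) cultivar PS3, potted for 2 months and then watered with 75 mL of 150 mM NaCl, or with the same volume of tap water as control. The first and second leaves were taken 1 or 3 days later, from separate plants for each day. Each of 6 two-colour arrays compared salt with control leaves of 1 day and 1 biological replicate, 3 arrays per day, with salt RNA in Cy3 on replicates 1 and 3 and in Cy5 on replicate 2. The values are deposited log ratios, read below as log2 of salt over control. This direction is taken as likely rather than documented, and rests on the control being tagged as reference in the sample labels. The sample titles name control first, as control against salt-treated, which read literally gives the opposite direction. With control over salt every sign below would turn. On each day, arrays of opposite dye orientation also correlated above 0, with r from 0.502 to 0.676 over 7632 clones measured on all arrays, which are not independent replicates. A dye effect per clone could give the same, and the base of the logarithm, on which every fold rests, is not stated either. Whether the replicate 2 ratios had already been turned to the same direction is not stated: with their sign turned, 0 clones passed on day 1, on day 3 or in the difference (880, 255 and 72 at an unadjusted p under 0.05). Every rise or fall below rests on taking them as deposited.

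The arrays measured between 7867 and 10381 clones, and 11 of the 15 members were measured on all 6. Replicate 1 of day 3 stood apart from the day 1 arrays (r between -0.09 and -0.01), while the other day 3 arrays gave 0.128 to 0.491 against day 1, so the day 3 falls of the members are also given without it. Mesophyll words (for light-harvesting proteins and the Rubisco small subunit) were in the names of 31 clones, among them a methyltransferase of that subunit, STMHT87. All were measured, but a ratio gives no level with which to test the leaf label. Those clones moved with the treatment: 27 fell on day 1 (median log2 ratio -1.60) and 2 on day 3 (median -0.06, with array medians of 0.62, -0.28 and -0.37). The 31 clones carried 8 names, so they are not 31 separate genes. Of 11 tested clones with epidermis words in their names, 2 rose and 1 fell on day 1 and 3 rose and 0 fell on day 3. Over all clones 8.11% rose and 10.4% fell on day 1, and 1.96% and 4.45% on day 3. Those that rose were all named nonspecific lipid-transfer protein 2. The 1 that fell was named glycolipid transfer protein-like, which need not mark the epidermis. Of 2 vascular clones 0 passed on either day, with 0 at an unadjusted p under 0.05. In whole leaves, fewer cells of a type and less RNA per cell cannot be told apart, and the part of such shifts in the values below was not tested.

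Fitted ratios come from 1 limma model of all 6 arrays, in which every clone has its own day 1, day 3 and dye terms. The dye term is shared by both days, and a day's ratio is the fitted midpoint of the dye orientations. A clone rose or fell where its adjusted p was under 0.05 after Benjamini-Hochberg adjustment over all clones. On day 1, 4 of 13 tested members fell and 0 rose, where 10.4% of all 9738 tested clones fell and 8.11% rose (18.5% in either direction). On day 3, 5 of 12 tested members fell and 0 rose, where 4.45% of 9032 clones fell and 1.96% rose (6.41% in either direction). At an unadjusted p under 0.05, 2 members were above 0 on day 1 and 1 on day 3. The share of all clones at that threshold in this fit is not given, so here and below such counts are only a description. The median log2 ratio over the tested members was -0.13 on day 1 and -0.25 on day 3, against 0.03 and 0.01 over all clones. The clones that fell on day 3 were those of 13-lipoxygenase and hydroperoxide lyase, while 7 tested clones of the other classes did not pass that day.

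**Figure D1:**
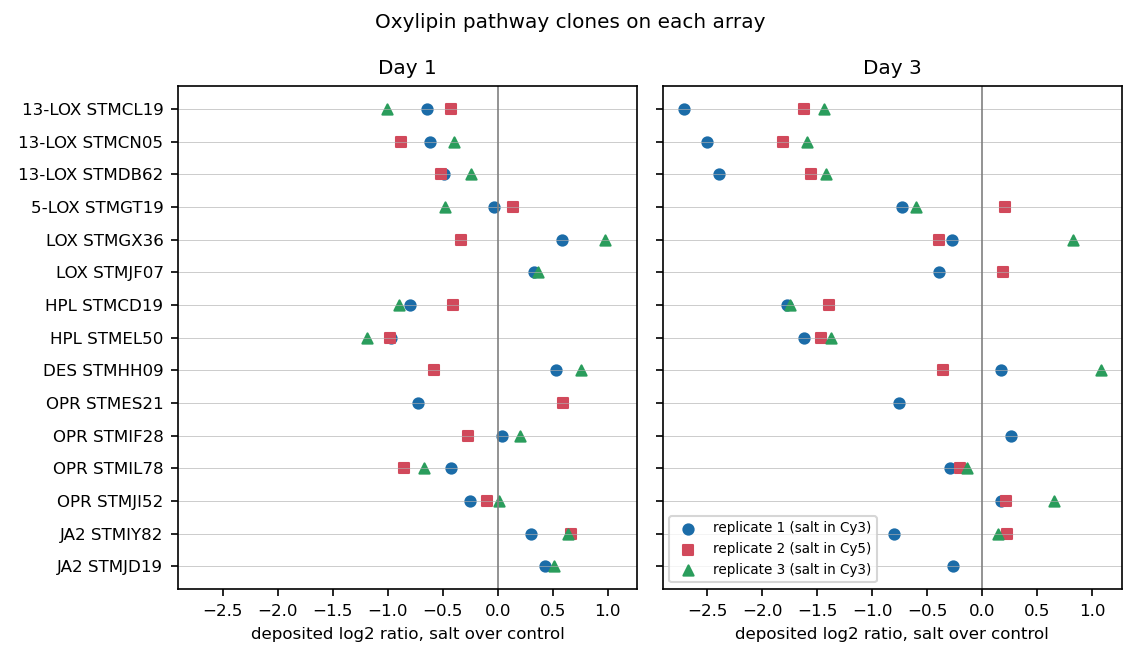
Deposited log2 ratio of salt over control (horizontal axis) for the 15 clones (rows: LOX lipoxygenase, HPL hydroperoxide lyase, DES divinyl ether synthase, OPR 12-oxophytodienoate reductase, JA2 Jasmonic acid 2) on each array of day 1 and day 3; symbols mark replicates. The 13-LOX and HPL clones lie below 0 on all 6 arrays and farther down on day 3 than on day 1.

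13-lipoxygenase is the plastid enzyme that starts jasmonate synthesis. On day 1, clone STMCN05 had log2 ratios of -0.62, -0.88 and -0.40 on replicates 1, 2 and 3, and on day 3 of -2.50, -1.81 and -1.60. Clone STMCL19 had -0.64, -0.43 and -1.01 on day 1, against -2.72, -1.62 and -1.44 on day 3. Clone STMDB62 had -0.48, -0.51 and -0.24 on day 1, against -2.40, -1.56 and -1.42 on day 3. All 18 of these values were below 0, the days did not overlap in any clone, and replicate 1 was the lowest array of day 3 in each. How many of all measured clones show no overlap of the days was not counted, so here and below it is only a description.

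On day 3 all 3 13-lipoxygenase clones fell. The fitted log2 ratio was -1.98 for STMCN05 (SE 0.18, adjusted p = 0.000281), a 3.94-fold lower signal. It was -1.85 for STMCL19 (SE 0.22, adjusted p = 0.00103) and -1.78 for STMDB62 (SE 0.19, adjusted p = 0.000577). The deposited annotation puts all 3 clones in 1 assembled transcript, so they are repeated measurements of what may be 1 gene and not separate genes. Without replicate 1 of day 3 the ratios were -1.70, -1.53 and -1.49 in the same order, with adjusted p = 9.44e-05, 0.000604 and 0.000199. On the day 3 arrays each clone lay within the lowest 1.12% of all measured clones, and on day 1 at between 4.43% and 26.7% from the bottom. With the sign of replicate 2 turned, they would lie on that day 3 array at 99.2% to 99.4% from the bottom.

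On day 1 the same clones were near the threshold. STMCN05 fell by 0.64 (SE 0.18, adjusted p = 0.0400), and this call was lost when any 1 day 1 array was left out (adjusted p from 0.0615 to 0.506, with the ratio at -0.39 without replicate 2), without the dye term (0.0567) and with the arrays scaled to equal spread (0.0611). STMCL19 had -0.62 (SE 0.22, adjusted p = 0.0796) and STMDB62 had -0.40 (SE 0.19, adjusted p = 0.189, and -0.19 without replicate 2 of day 1), and neither passed. Without replicate 1 of day 3, which enters the shared spread, both passed on day 1 (adjusted p = 0.00568 and 0.0140).

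The fall was larger on day 3 than on day 1. As a contrast of the same fit, day 3 minus day 1 was -1.34 for STMCN05 (SE 0.25, adjusted p = 0.0110), -1.23 for STMCL19 (SE 0.30, adjusted p = 0.0293) and -1.38 for STMDB62 (SE 0.26, adjusted p = 0.0102). Over the tested members 4 of 12 had a lower ratio on day 3 than on day 1 and 0 a higher one, where 5.12% of 9028 clones had a lower and 6.46% a higher one (11.6% in either direction). At an unadjusted p under 0.05 the counts of members were 7 lower and 2 higher, given without the share over all clones at that threshold. The median difference was -0.56 over the members and -0.03 over all clones. Left-out arrays kept the sign of the 13-lipoxygenase differences, which ranged from -1.61 to -0.86, but not every call. Without replicate 1 of day 1 no 13-lipoxygenase clone passed (adjusted p = 0.159 for STMCL19, 0.0814 for STMCN05 and 0.0766 for STMDB62). STMCL19 also failed without replicate 2 or 3 of day 1 (0.109 and 0.0607) or replicate 2 of day 3 (0.0690).

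**Figure D2:**
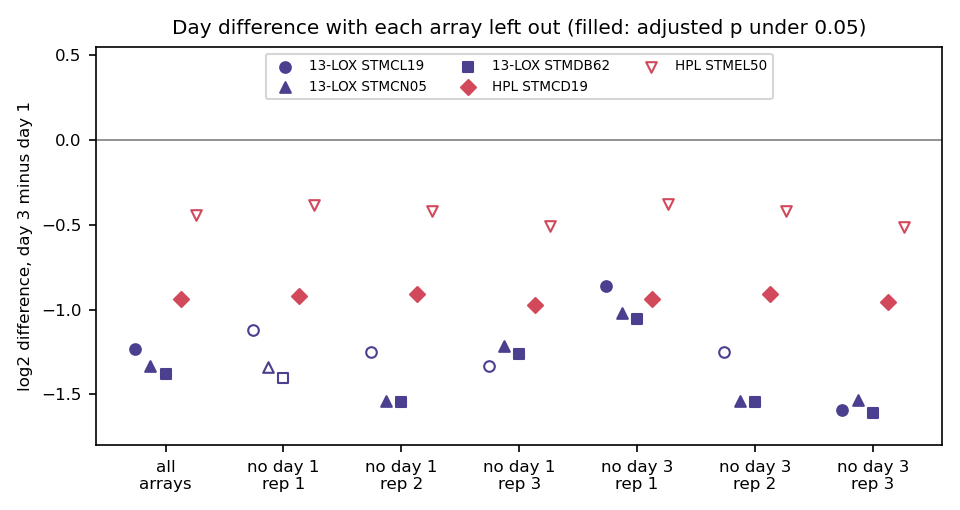
Difference of the log2 ratios, day 3 minus day 1 (vertical axis), for the 13-LOX and HPL clones with all arrays and with each array left out (horizontal axis); filled symbols passed at an adjusted p under 0.05. Values stay below 0 throughout, and without replicate 1 of day 1 only the HPL clone STMCD19 passes.

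Hydroperoxide lyase cuts 13-hydroperoxides into the short aldehydes of cut-leaf scent and so competes with jasmonate synthesis for substrate. Clone STMEL50 had log2 ratios of -0.97, -0.98 and -1.19 on day 1, against of -1.62, -1.46 and -1.38 on day 3. Clone STMCD19 had -0.80, -0.40 and -0.90 on day 1, against -1.77, -1.40 and -1.75 on day 3. Every array was below 0 in both clones, and the days did not overlap. One assembly in the annotation gives the clones 2 different transcripts. Another also gives 2, of which both clones carry 1, so whether they stand for 1 gene is not settled.

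Both hydroperoxide lyase clones fell on both days. On day 1 the fitted log2 ratio was -1.04 for STMEL50 (SE 0.12, adjusted p = 0.000522), 2.05-fold lower, and -0.63 for STMCD19 (SE 0.11, adjusted p = 0.00383). On day 3 it was -1.48 for STMEL50 (SE 0.12, adjusted p = 0.000114) and -1.57 for STMCD19 (SE 0.11, adjusted p = 4.71e-05), 2.78-fold and 2.97-fold lower. Without replicate 1 of day 3 these were -1.42 and -1.57 (adjusted p = 0.000253 and 0.000107). STMEL50 passed on both days with any 1 array left out. STMCD19 did so on day 3, and on day 1 it failed without replicate 2 of that day (adjusted p = 0.0913). For STMCD19 the fall deepened between the days, by -0.94 (SE 0.15, adjusted p = 0.00547), and this held with each array left out (highest adjusted p = 0.0494). For STMEL50 the difference was -0.44 (95% interval -0.80 to -0.07, adjusted p = 0.124) and did not pass. It passed, at -0.75, with the arrays scaled to equal spread (adjusted p = 0.0193).

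**Figure D3:**
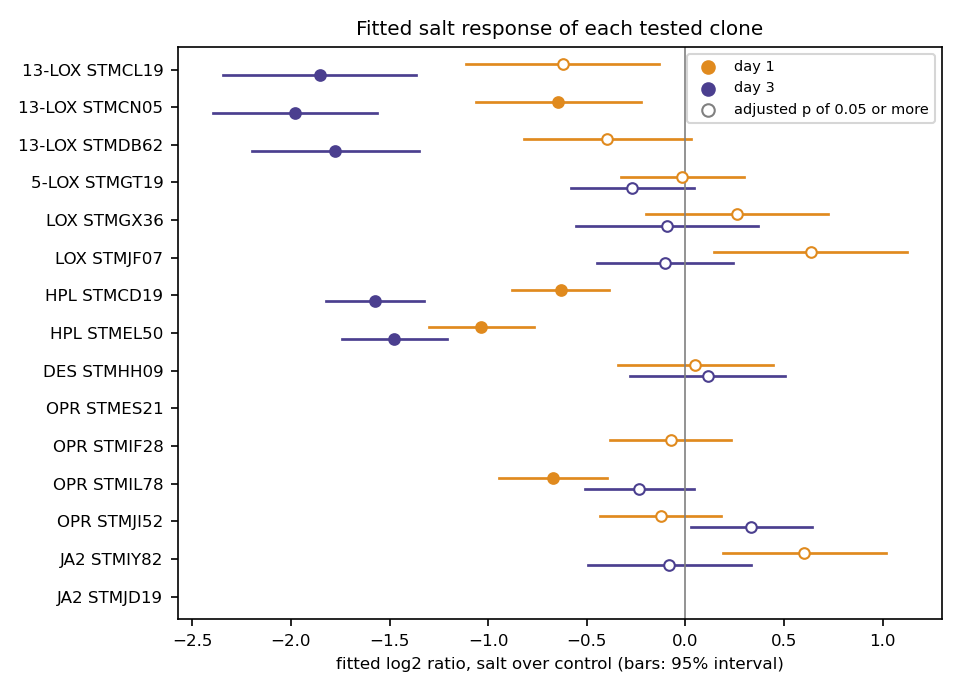
Fitted log2 ratio of salt over control with its 95% interval (horizontal axis) for each tested clone on day 1 and day 3; filled points passed at an adjusted p under 0.05. On day 3 the 13-LOX and HPL clones lie between -1.98 and -1.48, and every other clone lies between -0.27 and 0.33.

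The 5-lipoxygenase clone STMGT19 stands for the 9-lipoxygenase type, since the potato enzyme of that name oxygenates linoleic acid at the 9 position. Its log2 ratios were -0.03, 0.14 and -0.48 on day 1, against -0.73, 0.21 and -0.60 on day 3. The Cy5 array was the highest on both days, and the arrays fell on both sides of 0. The fitted ratio was -0.02 on day 1 (95% interval -0.33 to 0.30) and -0.27 on day 3 (-0.58 to 0.04), and neither passed (adjusted p = 0.953 and 0.344). Its dye term was 0.63 (SE 0.20, unadjusted p = 0.0116, adjusted p = 0.142).

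Of the lipoxygenase clones with no position stated, STMGX36 had log2 ratios of 0.58, -0.34 and 0.98 on day 1, against -0.27, -0.39 and 0.83 on day 3. It lay below 0 on the Cy5 array of each day. Its fitted ratios of 0.26 and -0.09 did not pass (adjusted p = 0.437 and 0.880), and its dye term was -0.89 (SE 0.30, unadjusted p = 0.0149). Clone STMJF07, measured on replicates 1 and 3 of day 1 and 1 and 2 of day 3, had 0.33 and 0.36 on day 1 and -0.39 and 0.18 on day 3. With its dye term set by day 3 alone, its day 1 ratio was 0.64 (95% interval 0.15 to 1.12, adjusted p = 0.0787), short of the threshold.

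A further clone, STMJK87, is named linoleate:oxygen oxidoreductase, the systematic name of a lipoxygenase, and lies outside the 15 because its name lacks the searched words. It carries the same annotation terms as the 5-lipoxygenase clone and was singled out after its values were seen. Its log2 ratios were -1.48, -0.93 and -1.22 on day 1, against 0.42, -0.17 and -0.37 on day 3. It fell by 1.19 on day 1 (SE 0.17, adjusted p = 0.00168) and had -0.02 on day 3 (adjusted p = 0.969), or -0.27 without replicate 1 of day 3 (adjusted p = 0.214). The difference of 1.17 (SE 0.24, adjusted p = 0.0153) had the opposite sign to that of the 13-lipoxygenase clones, and did not pass without replicate 1 of day 1 (1.03, adjusted p = 0.104).

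Divinyl ether synthase turns 9-hydroperoxides into divinyl ethers. Clone STMHH09 had log2 ratios of 0.53, -0.58 and 0.76 on day 1, against 0.17, -0.36 and 1.08 on day 3. Both Cy5 arrays were below 0 and all 4 Cy3 arrays above it. The dye term was -1.10 (SE 0.25, unadjusted p = 0.00178, adjusted p = 0.0727), the largest in size among the members, and the fitted ratios were 0.05 and 0.11 with adjusted p = 0.883 and 0.815. Within a day the dye and replicate 2 cannot be told apart.

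12-oxophytodienoate reductases reduce cyclopentenones of this pathway; the form that makes jasmonate in tomato and Arabidopsis is the peroxisomal OPR3, and OPR1, after which 2 of the 4 clones are named, is not known to be needed for it. Clone STMIL78, most like OPR1 of Arabidopsis, had log2 ratios of -0.42, -0.85 and -0.67 on day 1, against -0.29, -0.20 and -0.14 on day 3. All arrays were below 0, and the days did not overlap. It fell on day 1 by 0.67 (SE 0.12, adjusted p = 0.00477), which was lost without replicate 2 of day 1 (-0.54, adjusted p = 0.188). On day 3 the ratio was -0.23 (adjusted p = 0.354), and the difference of 0.44 did not pass (95% interval 0.06 to 0.82, adjusted p = 0.137).

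The other reductase clones did not pass. STMES21, most like tomato OPR1, had -0.72 and 0.59 on replicates 1 and 2 of day 1 and -0.75 on replicate 1 of day 3, too few arrays for a test. The reductase-like clone STMIF28 had 0.04, -0.27 and 0.20 on day 1 and 0.26 on the 1 day 3 array that measured it, and its day 1 ratio was -0.08 (adjusted p = 0.750). The reductase-like clone STMJI52 had -0.25, -0.10 and 0.02 on day 1, against 0.17, 0.22 and 0.66 on day 3. Its day 3 ratio was 0.33 (95% interval 0.03 to 0.64, adjusted p = 0.223), and the days did not overlap, with a difference of 0.46 (adjusted p = 0.160).

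Jasmonic acid 2 is no enzyme: in tomato it is a NAC-type transcription factor. Clone STMIY82 had log2 ratios of 0.31, 0.67 and 0.64 on day 1, against -0.80, 0.23 and 0.14 on day 3. All day 1 arrays were above 0 and above all day 3 arrays. Its day 1 ratio was 0.60 (SE 0.18, adjusted p = 0.0501), short of the threshold, and it passed without replicate 1 or 3 of day 3 (0.00568 and 0.0150) and with a replicate block (0.0161). On day 3 it was -0.08 (adjusted p = 0.884), and the difference of -0.68 did not pass (adjusted p = 0.124, and 0.0399 with a replicate block). The potato-named clone STMJD19 had 0.43 and 0.51 on replicates 1 and 3 of day 1 and -0.27 on replicate 1 of day 3. It was not tested, since all its arrays shared 1 dye orientation.

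**Figure D4:**
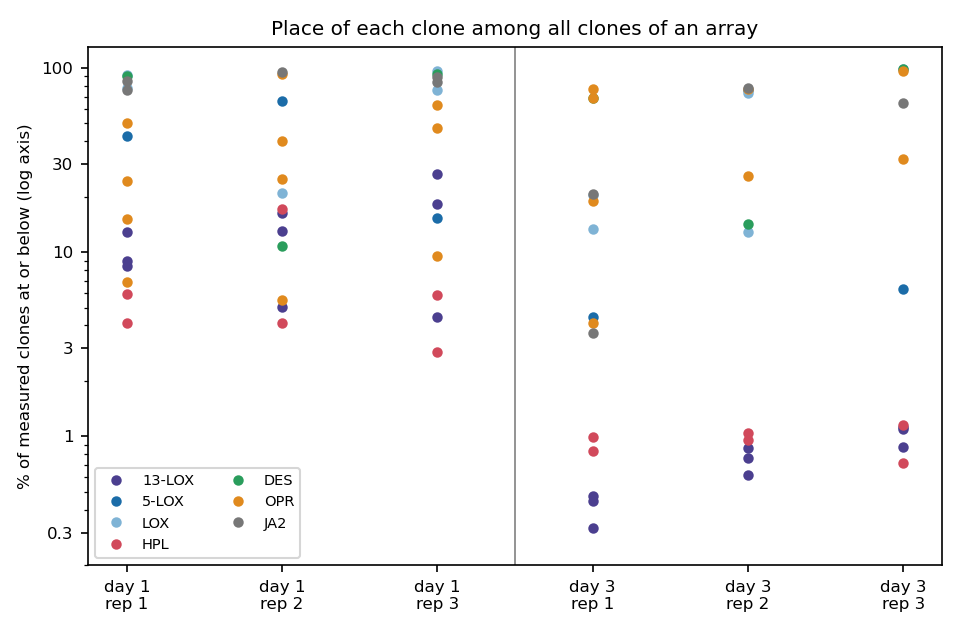
Percentage of all measured clones with a ratio at or below that of each member (vertical axis, logarithmic), on each array (horizontal axis; rep, replicate); colours mark the classes. On day 3 the 13-LOX and HPL clones lie between 0.318% and 1.16%, while the lowest other member on those arrays is at 3.63%.

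The members that fell on day 3 share annotation terms only in part. Chloroplast was given for 4 members, the 13-lipoxygenases and divinyl ether synthase, and response to water deprivation for the 3 13-lipoxygenase clones. Response to wounding and to jasmonate were each given for 7, which were the 13-lipoxygenases, the 5-lipoxygenase, both lipoxygenases with no position stated and divinyl ether synthase. None of these terms was given for the hydroperoxide lyase clones in the deposited table.

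The steps around the enzymes were counted from word lists. Release and desaturation of the fatty acid substrate had 7 of 27 tested clones lower and 1 higher on day 1, with a median log2 ratio of -0.14, beside 10.4% lower and 8.11% higher over all clones. Without replicate 2 of day 1 the list had 1 lower and 0 higher, and without replicate 3 it had 4 and 0. The 27 clones carried 19 names, so they are not 27 separate genes. The lower ones were patatin STMEP28, a storage protein with acyl hydrolase activity (-1.45, SE 0.19, adjusted p = 0.00107), and clones of 2 desaturase names. STMCK79 (-0.87, SE 0.14, adjusted p = 0.0919 without replicate 2 of day 1), STMCM57, STMCU78 and STMEI66 were all named plastid omega-6 desaturase. STMEP56 and STMES31 were both named delta-12 desaturase. The higher one was phosphoinositide-specific phospholipase C STMGI86 (0.56, SE 0.13), in the list by the word phospholipase. Its name states no release of a fatty acid. It did not pass with any 1 day 1 array left out (adjusted p from 0.0904 to 0.129) or with each day fitted alone (0.0511). On day 3, 0 of 24 passed (4 lower and 2 higher at an unadjusted p under 0.05), but without replicate 1 of day 3 the list had 4 of 22 lower. With the arrays scaled to equal spread 1 was lower and 1 higher, and with a replicate block 1 was lower. In the difference, 2 of 24 were higher on day 3 than on day 1 and 0 lower, where 6.46% and 5.12% of all clones were. Those 2 were STMEP28 (1.20) and the delta-12 desaturase STMEP56 (0.79). Neither passed when any 1 day 1 array was left out (adjusted p from 0.0531 to 0.121). STMEP28 also failed with scaled arrays (0.0584) and STMEP56 without the dye term (0.0597). Peroxisomal beta-oxidation, which shortens the jasmonate precursor, had 1 of 5 tested clones higher on day 1, thiolase STMCM11 (0.49, SE 0.12, adjusted p = 0.0230), which did not pass with any 1 day 1 array left out (adjusted p from 0.0682 to 0.389). It had 0 of 4 passing on day 3, with 0 at an unadjusted p under 0.05. The jasmonate receptor component COI1 was the 1 clone of signalling, at 0.12 on day 1 and 0.11 on day 3, and it did not pass.

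The last list was drawn by words for defence proteins of types known to be induced by jasmonate in leaves of tomato and potato. It was chosen with earlier results on proteinase inhibitors known. A name does not show that a clone is an induced form, and some are named neutral leucine aminopeptidase. On day 1, 3 of 31 tested clones were lower and 0 higher (median 0.08; 3 were above 0 at an unadjusted p under 0.05), near the 10.4% lower over all clones. They included trypsin inhibitor STMJA26 (-1.04, SE 0.11) and ethylene-responsive inhibitor STMIU33 (-0.83, SE 0.13, with adjusted p = 0.0522 without replicate 2 of day 1). Another trypsin inhibitor clone, STMCC57, had -0.007 on day 1 and did not pass. On day 3, 12 of 28 were lower and 1 higher (median -0.41), and in the difference 11 of 28 were lower and 2 higher (median -0.45). The 28 clones carried 17 names. Over all clones 4.45% were lower and 1.96% higher on day 3, and 5.12% and 6.46% in the difference. Without replicate 1 of day 3 the list had 12 of 23 lower on day 3, and without replicate 2 of day 3 it had 8 of 23. In the difference it had 4 lower and 0 higher without replicate 1 of day 1, 7 and 1 without replicate 2 of day 1, 6 and 2 without replicate 3 of day 1, and 5 and 2 without the dye term. Proteinase inhibitor I clone STMCM05, which blocks serine proteases of insect guts, had -0.55, 0.24 and 0.36 on day 1, against -3.42, -2.21 and -2.29 on day 3. The days did not overlap. Its day 3 ratio was -2.56 (SE 0.23, adjusted p = 0.000251), and the difference was -2.66 (SE 0.32, adjusted p = 0.00169). The metallocarboxypeptidase inhibitor STMCG57 had -2.98 on day 3 (SE 0.33, adjusted p = 0.000817), and -2.39 without replicate 1 of that day (adjusted p = 2.44e-05). STMGH73, of the same name, had -0.15 on day 3 (adjusted p = 0.648). STMJP33, named metallocarboxypeptidase inhibitor IIa, had -1.20 (adjusted p = 0.00103). A second inhibitor I clone, STMCR35, differed by -2.36 (SE 0.31). Clones of polyphenol oxidase, which oxidises phenolics on wounding, went both ways. Propolyphenol oxidase STMDB46 was lower on day 3 (-1.01, SE 0.13, adjusted p = 0.00195) and in the difference (-1.01, adjusted p = 0.00928). STMCI55, STMEB19 and STMGP96 were at -0.41, -0.32 and -0.21 on day 3 and did not pass. The higher clone was polyphenol oxidase STMIT72, at 0.53 on day 3 (SE 0.13, adjusted p = 0.0444) and 1.06 in the difference. Its day 3 call was lost with each array left out except replicate 3 of day 3 (adjusted p from 0.0599 to 0.462), without the dye term (0.0566), with centred arrays (0.0509) and with each day fitted alone (0.110), and its difference was lost without replicate 1 of day 1 (0.0552). STMIU33 was the other clone higher on day 3 than on day 1, by 0.77 (SE 0.17, adjusted p = 0.0229), which was lost without replicate 1 or 2 of day 1 or replicate 2 of day 3 (0.0998, 0.0872 and 0.0690). The defence calls of day 3 share their arrays with those of the oxylipin set.

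**Figure D5:**
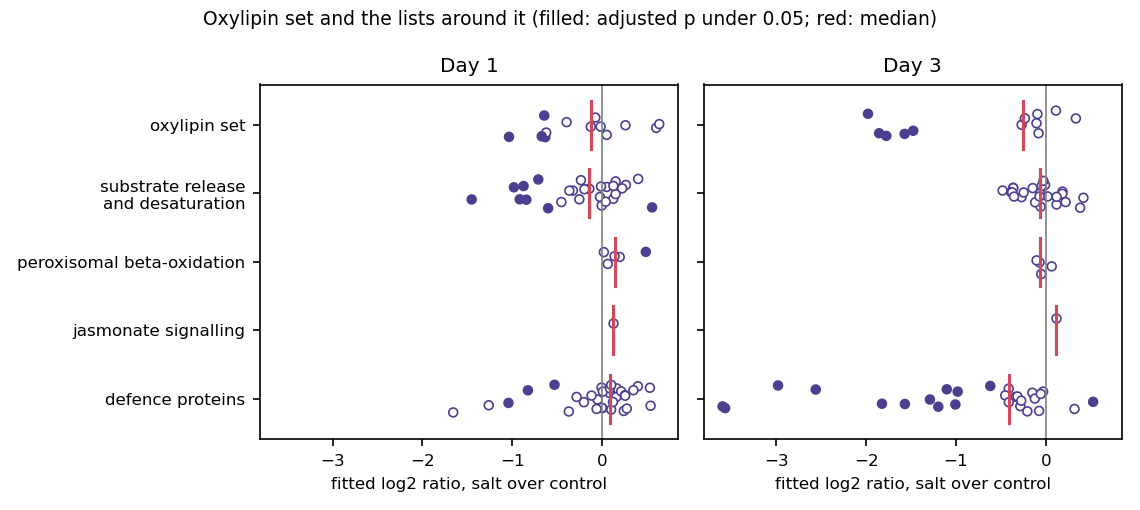
Fitted log2 ratio of salt over control (horizontal axis) of each tested clone in the oxylipin set and in the 4 lists around it on day 1 and day 3; filled points passed at an adjusted p under 0.05 and red lines are medians. On day 3 low filled points lie in the oxylipin set and the defence list (medians -0.25 and -0.41).

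Over the 6 arrays the mean 13-lipoxygenase ratio was -0.58, -0.61 and -0.55 on day 1, against -2.54, -1.66 and -1.49 on day 3. Among 5809 annotated clones outside the set, the 5 with different names that correlated best with it were a hypothetical protein (STMHX51, Pearson r = 0.999), a heat- and acid-stable phosphoprotein (STMDG10, 0.997), putative transcription factor RAU1 (STMCL24, 0.996), Hin19 (STMED44, 0.994) and the xyloglucan endotransglycosylase LeXET2 (STMDB57, 0.994). These are descriptions over 6 arrays that fall into 2 days, and 369 clones had r above 0.9. The likeness is one of shape and not of level: STMDB57 was at 0.91, 0.90 and 1.12 on day 1, against at -1.39, -0.58 and -0.12 on day 3.

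In the authors' deposited table, the p-values of a one-sample test, made for either day, were under 0.05 for 7 of the 15 members on day 1 and 6 on day 3, against 2033 and 1017 of all 10499 clones. On day 3 these were all 5 13-lipoxygenase and hydroperoxide lyase clones (p from 0.00221 to 0.0404 in the authors' deposited table) and STMIL78 (0.0448 there).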

How the data were processed

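Leaf RNA of salt-watered and control potato plants was compared on 6 two-colour cDNA arrays. The authors deposited a log ratio for each clone on an array, read here as a log2 ratio. How arrays were scanned, corrected and normalized, and the base and direction of the logarithm, is not given in the sources used here. The authors' p-values, from a one-sample test for either day per the file headers, were deposited beside them. The annotated table, whose missing cells hold text, and the value table agreed in all 10499 rows. No intensities were used, so precision is limited by the number of arrays.

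Ratios were fitted by least squares for each pattern of missing values, with 2 day terms and a dye term per clone, and variances were moderated by limma 3.58.1 under R 4.3.3 (two-sided, Benjamini-Hochberg over all clones, adjusted p under 0.05). A clone needed 2 arrays of a day, an estimable dye term and 1 residual degree of freedom. The spread is estimated once per clone over both days and measures biological replicates. The fit was tested on simulated ratios. Every member is described. In each list up to 2 passing clones of either direction are named, by smallest p, with some others of like name. The 5 most alike clones are named by correlation. Members and lists were chosen with earlier results of these data known. Alternatives were no dye term, scaling, centring, complete clones, another threshold, a replicate block, each day alone, each array left out and, chosen after seeing the data, looser inclusion and replicate 2 with its sign turned. Figures used Python 3.11.15 and matplotlib 3.10.9.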

Additional observations from a re-analysis of the deposited data

Results flagged for a closer look

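The salt response of 4 members differed between the days by the test of the difference itself, day 3 minus day 1 on the log2 scale. The values were -1.23 for STMCL19, -1.34 for STMCN05 and -1.38 for STMDB62, the 3 13-lipoxygenase clones of 1 assembled transcript, and -0.94 for the hydroperoxide lyase clone STMCD19. The ratios were below 0 on 6 of 6 arrays in each of these clones. Groups of 3 arrays are too small for the check on single outlying arrays.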

How the results depend on the processing

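The count of members called on day 3 was 5 under every alternative but 1, and the range with arrays left out was 5 to 5. On day 1 the 4 calls became 7 at an adjusted p under 0.1 and 1 to 7 with 1 array left out; the 4 calls of the difference became 1 to 5. Over all clones, 1800 calls on day 1 ranged from 536 to 2534 with an array left out, 579 on day 3 from 171 to 806, and 1045 in the difference from 311 to 1175. Day 3 calls over all clones were 896 with scaled arrays, 887 at an adjusted p under 0.1 and 345 with each day fitted alone; without the dye term the difference had 651. In the pathway lists, 12, 13 and 15 calls on day 1, day 3 and in the difference ranged over 2 to 18, 8 to 16 and 4 to 18 with an array left out, and the difference had 8 without the dye term. With a replicate block the members called were 6, 5 and 5. Deviations from the day means correlated with r of 0.046, 0.596 and 0.451 for same-numbered arrays, and with r from -0.521 to 0.198 for different numbers. Replicate 2 also shares a dye orientation on both days, so whether the numbers pair the arrays is not settled. With the sign of the replicate 2 arrays turned, limma gave 0 calls for members, all clones and lists in all 3 comparisons (at an unadjusted p under 0.05, 880, 255 and 72 of all clones and 2, 2 and 0 members). This turn gives salt over control if the ratios had been deposited as Cy3 over Cy5. For Cy5 over Cy3 it gives control over salt, and the turned values would change sign. With replicate 2 turned, STMCN05, STMEL50 and STMIL78 stood at 0.39, 0.0253 and 0.071 on day 1, and the desaturase STMCK79 at 0.13. The cause of the other changes was not tested.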

Other observations

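Outside the 15 members, 6 clones carried an annotation term for jasmonate synthesis or lipoxygenase activity, STMJK87 among them. A stearoyl-acyl carrier protein desaturase (STMCA28), which makes oleic acid in the plastid, fell by 1.33 on day 1 (SE 0.29, adjusted p = 0.0120), which was lost without replicate 1 of day 1 (-1.19, adjusted p = 0.114). Its log2 ratios were -1.581, -1.004 and -1.378 on day 1, against 0.81, -0.65 and -0.86 on day 3. A second acyl-carrier-protein desaturase (STMHN19) had -0.07 on day 1 and 0.37 on day 3 and did not pass (adjusted p = 0.766 and 0.148). Neither LEDI-5c clone passed, with -0.35 (STMFB87) and 0.05 (STMHW57) on day 1 and 0.02 and 0.05 on day 3. The unnamed clone STMGL95 had 0.17 and -0.06.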
